A study of Mus musculus with 20 samples.

Results

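The genes described here encode cytokines that antigen-presenting cells make to steer T cells and natural killer cells, together with the receptor chain that presents IL-15. They are Il12a, Il12b, Il23a, Il27, Ebi3, Il15, Il15ra, Il6, Il10 and Tgfb1, 10 of the 55260 mouse genes in the count table. The members were chosen by name for their function, and each gene's value is the sum of its transcript rows. The IL-12 family is built from shared subunits: the p40 chain made from Il12b pairs with the p35 chain of Il12a to give IL-12 and with the p19 chain of Il23a to give IL-23. The Ebi3 chain pairs with the p28 chain of Il27 to give IL-27, and with p35 to give IL-35. IL-12 from conventional dendritic cells of the cDC1 type is known to support CD8 T cell and natural killer cell responses in tumours, IL-15 is shown to neighbouring cells on IL-15 receptor alpha, and IL-10 and TGF-beta are best known for restraining T cells.

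RNA came from tumours of MC38-OVA, a mouse colon carcinoma line that expresses ovalbumin, grown in C57BL/6 mice. All groups carried these tumours. The untreated group, which the series text describes as sham-irradiated, has no antibody in its label, and the other 4 groups received a local dose of 8 Gy on day 12. They were given radiotherapy (RT) alone, RT plus anti-SIRPa (400 µg on each day given), RT plus anti-PD-1 (250 µg on each day given), or RT plus both antibodies. SIRPa is an inhibitory receptor of phagocytes, and PD-1 an inhibitory receptor of T cells. Tumours were taken on day 17, 5 days after irradiation. From each group the leukocytes of 10 tumours, 1 per mouse, were pooled and sorted into 4 populations: CD8 T cells, CD11c+CD11b+ cells and CD11c+CD11b- cells, both labelled dendritic cells, and CD11c-CD11b+ myeloid cells. That gave 20 libraries, 1 for each population and treatment, with a total of 21.5 to 35.7 M counts each. A treatment is therefore a single pool, the populations of a treatment share its pool, no group without RT received an antibody, and age and sex are not given in the labels. Tests across pools measure the spread between pools and not between repeats of a treatment.

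The labels were checked against marker genes before any comparison. The library labelled untreated CD8 T stood apart: it held Cd8a, which encodes a chain of the CD8 coreceptor, at 48.2 CPM (counts-per-million, scaled by the TMM method), against 759 to 1180 CPM in the 4 irradiated CD8 T libraries. Its 10 macrophage markers summed to 18400 CPM, against 1140 to 2590 CPM in those libraries. In the CD11c+CD11b+ libraries the macrophage markers summed to 7230 to 13900 CPM. In the CD11c+CD11b- libraries 7 natural killer cell markers summed to 1410 to 2530 CPM, and these libraries held 8 cDC1 markers at 181 to 1720 CPM. The cDC1 sums were 401 to 529 CPM in CD11c+CD11b+ and 230 to 309 CPM in CD11c-CD11b+ libraries. In the untreated pool the CD11c+CD11b- library was the lowest, at 181 CPM. The CD11c+CD11b+, CD11c-CD11b+ and CD8 T libraries of that pool held 401, 232 and 448 CPM. No macrophage, cDC1 or natural killer cell marker was at 0 in any population's 5 libraries together. In such bulk samples, fewer cells of a type and less RNA per cell cannot be told apart.

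The 3 myeloid populations held different sets of these cytokines. Il12b was highest in CD11c+CD11b- cells. Il27, Ebi3, Il15 and Il10 were lowest there, and Il23a, Il15 and Il6 had their highest means in CD11c-CD11b+ cells. With the treatment pool as a block, 9 of the 10 members differed between CD11c+CD11b- and CD11c+CD11b+ cells, where 41.6% of the 20905 genes tested passed (adjusted p below 0.05, edgeR quasi-likelihood F-test with Benjamini-Hochberg adjustment). Of these, Il12a, Il12b and Il15ra were higher and Il23a, Il27, Ebi3, Il15, Il10 and Tgfb1 lower in CD11c+CD11b- cells. The median log2 difference of the members was -1.10, and that of all genes tested was 0.00. Between CD11c+CD11b- and CD11c-CD11b+ cells 8 members differed, beside 43.3% of all genes: Il12a and Il12b were higher, and Il23a, Il27, Ebi3, Il15, Il6 and Il10 lower, in CD11c+CD11b- cells, with a member median of -1.31. Between CD11c+CD11b+ and CD11c-CD11b+ cells 3 members differed, beside 21.4% of all genes: Il12b and Ebi3 were higher and Il15 lower in CD11c+CD11b+ cells, with a member median of -0.13. Macrophage markers summed to 460 to 1140 CPM in CD11c+CD11b- libraries and to 4100 to 13900 CPM in the 10 CD11b+ myeloid libraries, and their part in these differences was not tested.

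**Figure D1:**
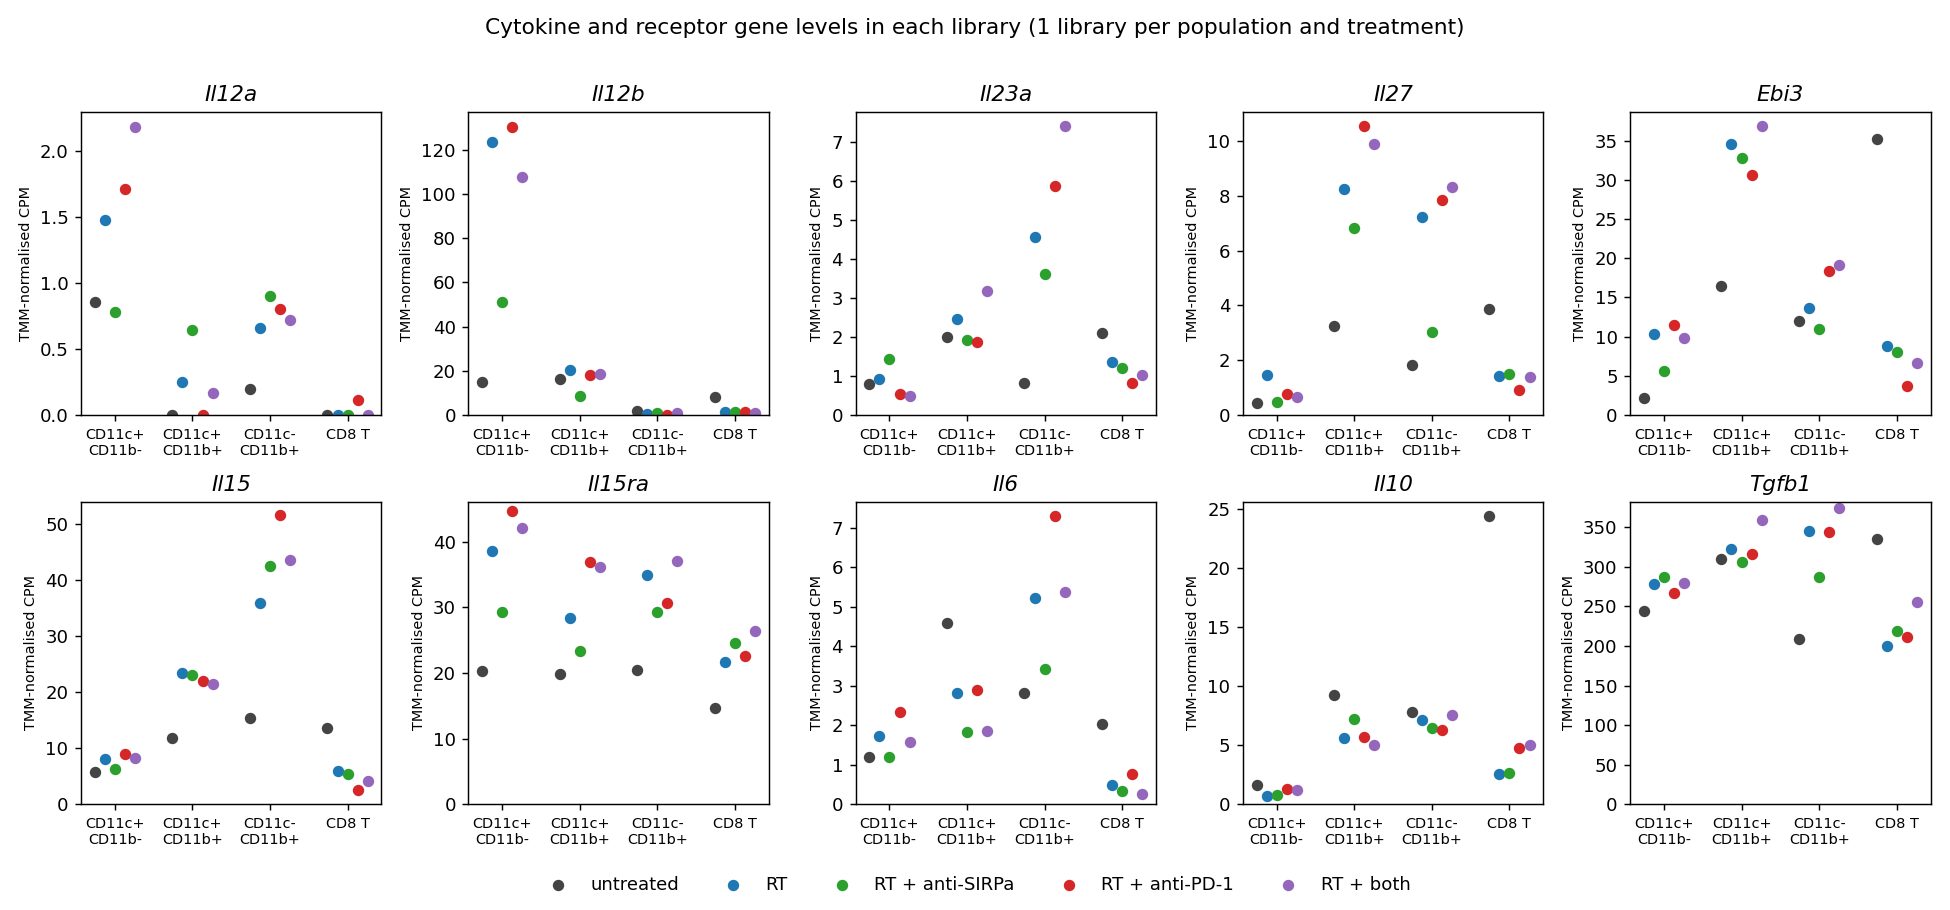
TMM-normalised CPM of the 10 genes (vertical axes, linear, each with its own scale) in the 4 sorted populations (horizontal axes); each point is 1 library and colours give the treatment. Il12b stands between 51.2 and 130 CPM in the 4 irradiated CD11c+CD11b- libraries and at 14.8 CPM in the untreated one.

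**Figure D2:**
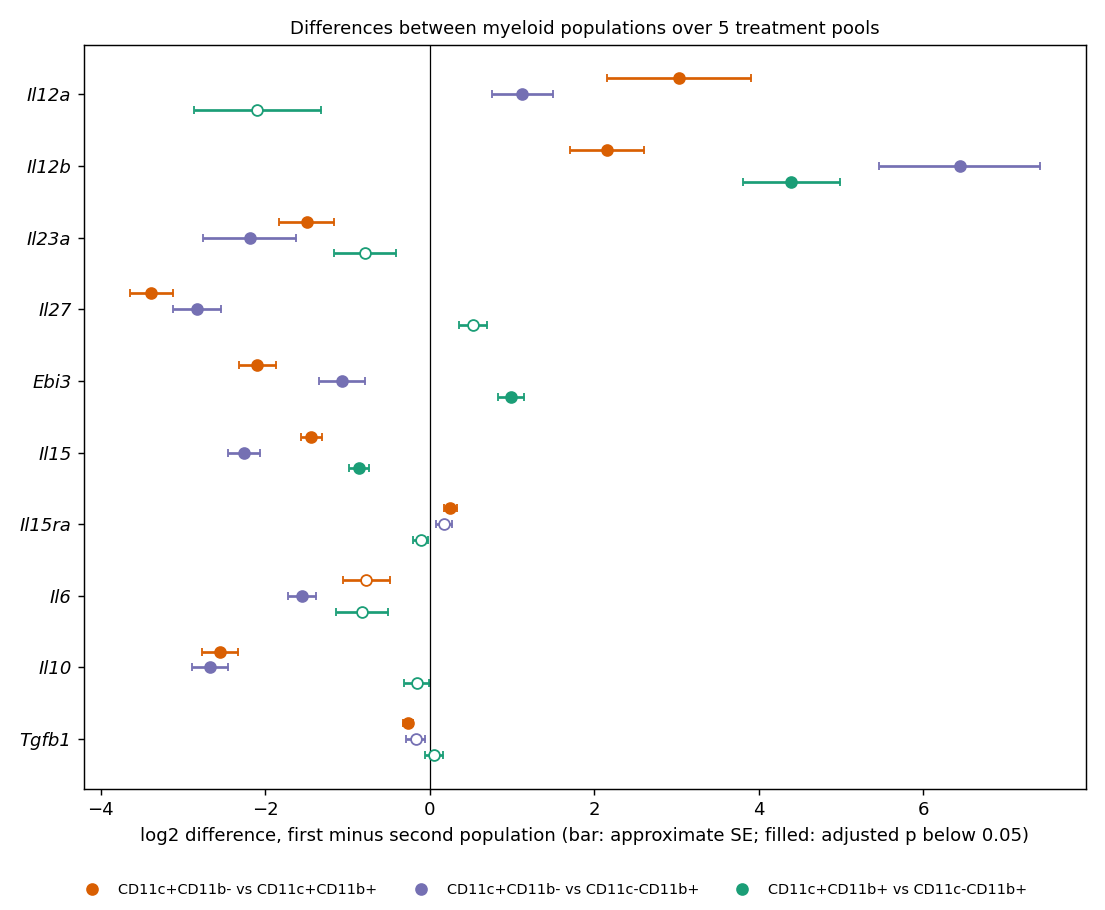
Log2 differences between the 3 myeloid populations (horizontal axis) for each gene (vertical axis) over 5 treatment pools, with approximate standard errors as bars and filled points where the adjusted p was below 0.05. Il12b differs by 2.16, 4.40 and 6.44 in the 3 comparisons, while Tgfb1 stays within 0.26 of 0.

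Il12b lies on chr11:44400063-44414033 (GRCm38, forward strand). In CD11c+CD11b- cells its level was 14.8 CPM in the untreated library, 124 CPM with RT, 51.2 CPM with RT plus anti-SIRPa, 130 CPM with RT plus anti-PD-1 and 108 CPM with RT plus both antibodies (mean 85.6 ± 50.4, SD, n = 5 pools). In CD11c+CD11b+ cells, in the same order of treatments, it was 16.1, 20.2, 8.63, 17.9 and 18.5 CPM (16.3 ± 4.51). The 5 CD11c-CD11b+ libraries held 1.97, 0.348, 0.985, 0 and 0.795 CPM (0.820 ± 0.749). For the library at 0 counts the upper limit of the 95% Poisson interval was 0.142 CPM, and 3 counts would be 0.115 CPM. The CD11c+CD11b- libraries were thus above the CD11c+CD11b+ libraries in 4 of 5 pools. The exception was the untreated pool, so that the ranges of the populations overlapped, while every CD11c+ library lay above every CD11c-CD11b+ library. The log2 difference of CD11c+CD11b- from CD11c+CD11b+ cells was 2.16 ± 0.446 (approximate SE; adjusted p = 0.00716). That of CD11c+CD11b+ from CD11c-CD11b+ cells was 4.40 ± 0.586 (adjusted p = 0.00177).

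The transcripts that carried the Il12b counts differed as well. Il12b-201 took 94.4 to 98.8% of the gene's counts in CD11c+CD11b+ libraries and 97.5 to 98.9% in CD11c+CD11b- libraries. In CD11c-CD11b+ cells it held 0 of 116 counts, and all of them were assigned to Il12b-202. The split between overlapping transcripts is an estimate made before deposit, and the p40 reads of the CD11c-CD11b+ population therefore rest on 1 annotated transcript and few counts.

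Promoter sequences are shown for Il12b, which differed most between the myeloid populations, and for Ebi3, the other shared chain of the family. They are the 250 bases before the RefSeq transcript start on the forward strand of GRCm38.p6, from RefSeq, at chr11:44399813-44400062 for Il12b and chr17:55952373-55952622 for Ebi3, whose RefSeq start lies upstream of its GENCODE gene start. Capitals mark matches to a kappa-B-like motif, as bound by NF-kappaB factors (GGGA and CC with any 4 bases between them), or to a SMAD-like motif, CAGACA, on either strand.
Il12b: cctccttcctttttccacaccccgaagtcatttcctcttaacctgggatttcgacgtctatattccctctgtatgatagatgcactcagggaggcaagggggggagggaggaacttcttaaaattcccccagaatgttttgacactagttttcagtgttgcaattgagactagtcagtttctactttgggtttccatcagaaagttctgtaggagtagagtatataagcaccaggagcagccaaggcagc
Ebi3: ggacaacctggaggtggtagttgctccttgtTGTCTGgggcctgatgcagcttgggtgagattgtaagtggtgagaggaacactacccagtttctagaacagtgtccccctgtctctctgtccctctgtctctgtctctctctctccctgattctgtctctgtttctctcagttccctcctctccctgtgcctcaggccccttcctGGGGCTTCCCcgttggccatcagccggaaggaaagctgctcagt
Ebi3 held a kappa-B-like match from -44 to -35 and a SMAD-like match from -219 to -214, counted from the RefSeq start, both on the reverse strand. These letters, and those of an interferon-response-like motif (GAAA repeated after any 2 bases) and a STAT-binding GAS-like motif (TTCNNNGAA), were not found in this window of Il12b. Of 32851 promoter windows of the same length, 17.6% held the kappa-B-like motif, 17.1% the SMAD-like, 2.98% the interferon-response-like and 7.02% the GAS-like motif. Among the members, promoters were matched for Il12a, Il12b, Ebi3, Il15ra, Il6 and Tgfb1. Il12a (second start), Il6 and Tgfb1 also held the kappa-B-like letters, in Il6 from -44 to -35. A match is a description of letters and not of binding.

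Il12a, the p35 chain of IL-12 and IL-35 on chr3:68690644-68698547, was scarce everywhere. The CD11c+CD11b- libraries held 0.858, 1.48, 0.779, 1.71 and 2.19 CPM (untreated, RT, RT plus anti-SIRPa, RT plus anti-PD-1, RT plus both), from 21 to 58 counts each. The CD11c-CD11b+ libraries held 0.194, 0.658, 0.906, 0.808 and 0.719 CPM in that order, from 6 to 23 counts. In CD11c+CD11b+ cells the values were 0, 0.249, 0.643, 0 and 0.164 CPM, from 33 counts in all. All 5 CD11c+CD11b- libraries lay above all 5 CD11c+CD11b+ libraries, with a log2 difference of 3.04 ± 0.876 (adjusted p = 0.0283). Against CD11c-CD11b+ cells it was 1.13 ± 0.375 (adjusted p = 0.0446), higher in 4 of 5 pools with overlapping ranges. The first of these calls was lost under 3 of 10 alternatives, each leaving out 1 pool (adjusted p up to 0.0968), and the second under 8 of 10 (up to 0.152).

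Il23a, the p19 chain of IL-23 on chr10:128296139-128298752 (reverse strand), had its highest levels in irradiated CD11c-CD11b+ cells. That population held 0.807 CPM untreated, and 4.56, 3.62, 5.88 and 7.42 CPM with RT, RT plus anti-SIRPa, RT plus anti-PD-1 and RT plus both. The CD11c+CD11b+ libraries held 1.99, 2.45, 1.93, 1.88 and 3.18 CPM in the same order, and the CD11c+CD11b- libraries 0.796, 0.924, 1.45, 0.543 and 0.490 CPM. The CD11c+CD11b- libraries lay below all CD11c+CD11b+ libraries, by -1.49 ± 0.332 on the log2 scale (adjusted p = 0.00976). They were below the CD11c-CD11b+ libraries in all 5 pools, by -2.19 ± 0.570 (adjusted p = 0.0181). That call was lost when the RT, the RT plus anti-PD-1 or the RT plus both pool was left out (adjusted p up to 0.0615). The transcript Il23a-202, annotated as a retained intron, took 52.1 ± 15.8% of the gene's counts in CD11c+CD11b+ cells and 36.4 ± 18.0% in CD11c-CD11b+ cells. In CD11c+CD11b- cells its share was 12.6 ± 12.6%, from 15 counts.

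Levels of partner chains can be set side by side only per transcript length, in TPM (transcripts-per-million). In CD11c+CD11b- cells Il12b stood at 94.3 ± 57.7 TPM, Il12a at 2.68 ± 1.38 TPM and Il23a at 1.19 ± 0.480 TPM. With all transcripts of each gene summed, Il12b RNA was 35.2 times Il12a RNA and 79.2 times Il23a RNA on the means. In CD11c+CD11b+ cells the Il12b level of 15.4 ± 4.67 TPM was 58.8 times Il12a and 5.87 times Il23a. Il12a was at 0 in 2 of these 5 libraries, and without the RT plus anti-SIRPa library its ratio was 130. In CD11c-CD11b+ cells the order turned on these gene sums. Il12b at 0.834 ± 0.787 TPM was 0.146 times Il23a, which stood at 5.70 ± 3.15 TPM, and 0.759 times Il12a. Without the untreated library these ratios were 0.0769 and 0.405. Of the Il12a counts, the coding transcripts Il12a-201 and Il12a-202 held 32 and 8 of 86 there, and 13 and 116 of 188 in CD11c+CD11b- cells. The other Il12a transcripts are annotated as retained introns, and ratios to coding Il12a RNA alone were not computed. In CD11c-CD11b+ cells the order of Il12b and Il12a is therefore given for the gene sums only. There Il12b held 116 counts on a coding transcript of 1944 bases, and Il12a-201 and Il12a-202 have 1303 and 1268 bases. In the CD11c+ populations Il12b, all annotated as coding, lay above the sum of all Il12a transcripts, and so above the coding ones too. Il12b exceeded Il23a in 5 of 5 libraries of each CD11c+ population and in 1 of 5 CD11c-CD11b+ libraries, the untreated one. These ratios compare RNA and not protein chains.

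**Figure D3:**
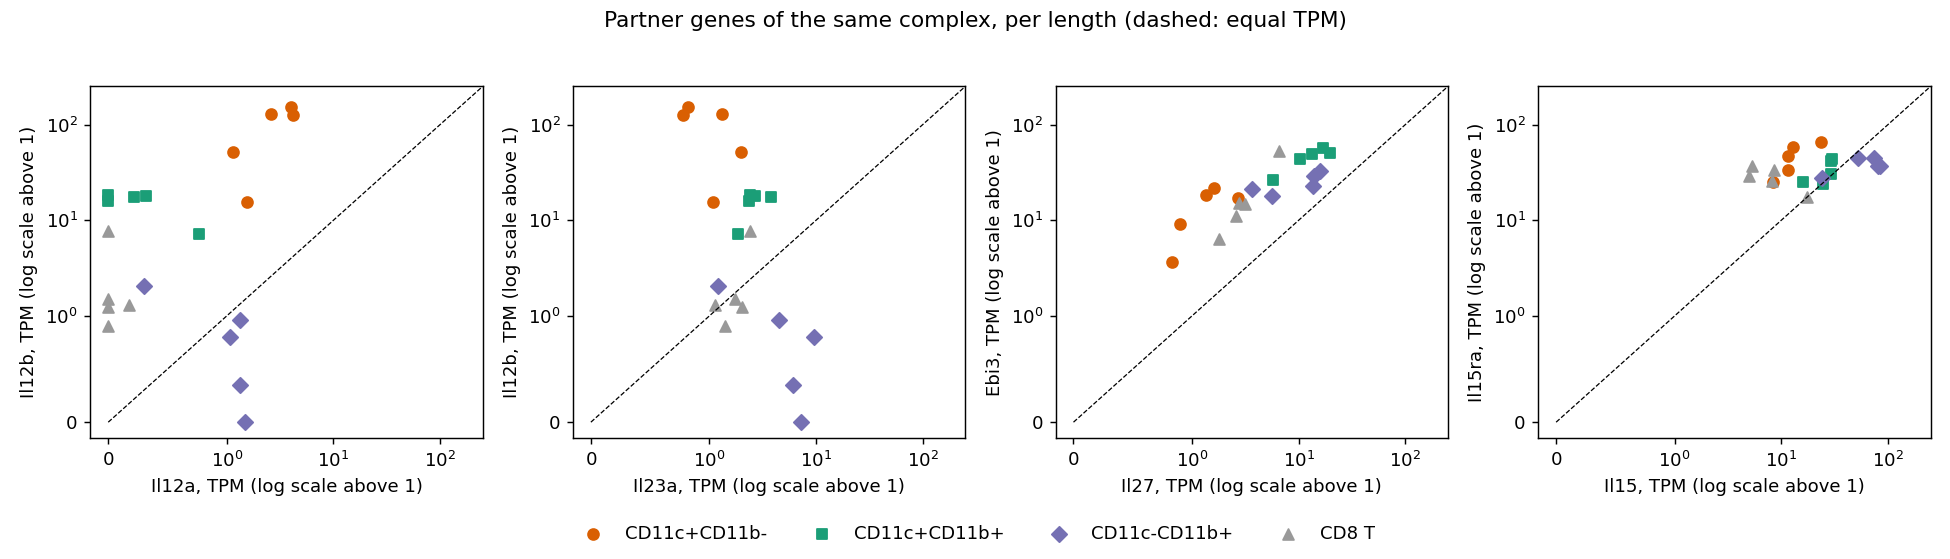
Partner genes plotted against each other in TPM in each of the 20 libraries (both axes linear from 0 to 1 and logarithmic above), with the dashed line at equal levels. Il12b lies above Il12a in all 10 CD11c+ libraries and in 1 of 5 CD11c-CD11b+ libraries; Ebi3 lies above Il27 in all 20.

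Il27, the p28 chain on chr7:126589010-126594941 (reverse strand), was highest in CD11c+CD11b+ cells, at 3.23 CPM untreated and 8.25, 6.82, 10.6 and 9.88 CPM with RT, RT plus anti-SIRPa, RT plus anti-PD-1 and RT plus both. The CD11c-CD11b+ libraries held 1.84, 7.23, 3.03, 7.84 and 8.33 CPM, and the CD11c+CD11b- libraries 0.429, 1.44, 0.482, 0.752 and 0.641 CPM. Every CD11c+CD11b- library lay below every library of the other myeloid populations. The log2 difference from CD11c+CD11b+ cells was -3.38 ± 0.265 (adjusted p = 8.99e-05) and that from CD11c-CD11b+ cells -2.83 ± 0.290 (adjusted p = 0.000363). CD11c+CD11b+ cells were above CD11c-CD11b+ cells in 5 of 5 pools, by 0.53 ± 0.171, with an adjusted p of 0.0605. Of 1021 exon bases of Il27, 103 also belong to Apobr on the opposite strand. Apobr, a lipoprotein receptor gene, had means of 114 to 140 CPM in the myeloid populations, and use of strand in counting is not stated, so reads in the shared stretch cannot be told apart.

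Ebi3, on chr17:55952640-55957022, followed the same order of the CD11c+ populations. Its levels were 16.4 CPM untreated and 34.6, 32.8, 30.7 and 36.9 CPM after irradiation in CD11c+CD11b+ cells, with treatments in the order above. CD11c-CD11b+ cells held 12.0, 13.7, 11.0, 18.4 and 19.1 CPM, and CD11c+CD11b- cells 2.14, 10.4, 5.57, 11.5 and 9.81 CPM. All CD11c+CD11b- libraries lay below all CD11c+CD11b+ libraries (log2 difference -2.09 ± 0.226, adjusted p = 0.000386). CD11c+CD11b+ cells exceeded CD11c-CD11b+ cells in every pool, by 0.99 ± 0.157 (adjusted p = 0.00357), although the ranges overlapped. Per length, Ebi3 exceeded its partner Il27 in all 20 libraries, by 3.42 times on the means in CD11c+CD11b+ cells, 2.34 times in CD11c-CD11b+ cells and 9.48 times in CD11c+CD11b- cells. An antisense gene, Gm16712, shares 270 of the 1154 exon bases of Ebi3 and had means of 1.01 to 2.13 CPM over the 4 populations.

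Il15 and its presenting receptor did not share an order of populations. Il15, on chr8:82331632-82403222 (reverse strand), held 15.4 CPM in untreated CD11c-CD11b+ cells and 35.9, 42.5, 51.5 and 43.5 CPM with RT, RT plus anti-SIRPa, RT plus anti-PD-1 and RT plus both. CD11c+CD11b+ cells held 11.8, 23.4, 23.0, 22.0 and 21.4 CPM, and CD11c+CD11b- cells 5.73, 8.02, 6.31, 8.94 and 8.18 CPM. The CD11c+CD11b- libraries lay below all libraries of both other populations, by -1.44 ± 0.127 against CD11c+CD11b+ cells (adjusted p = 0.000158) and -2.26 ± 0.191 against CD11c-CD11b+ cells (adjusted p = 0.000156). CD11c+CD11b+ cells were below CD11c-CD11b+ cells in all 5 pools, by -0.86 ± 0.124 (adjusted p = 0.00245). Without the pool block this last call was lost (adjusted p = 0.106).

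Il15ra, on chr2:11705290-11734317, differed little between the myeloid populations. It stood at 20.3, 38.6, 29.3, 44.6 and 42.1 CPM in CD11c+CD11b- cells (treatments as before) and at 19.9, 28.4, 23.4, 36.9 and 36.1 CPM in CD11c+CD11b+ cells. The CD11c-CD11b+ values were 20.4, 35.0, 29.4, 30.7 and 37.0 CPM. CD11c+CD11b- cells were the higher of the CD11c+ populations in all 5 pools, by a log2 difference of 0.25 ± 0.078 (adjusted p = 0.0382), which did not pass under 6 of 10 alternatives (adjusted p up to 0.441). On the means Il15ra was 3.40 times Il15 per length in CD11c+CD11b- cells, 1.28 times in CD11c+CD11b+ cells and 0.609 times in CD11c-CD11b+ cells. The receptor gene exceeded the cytokine gene in all 5 CD11c+CD11b- libraries, and in 1 CD11c-CD11b+ library. The Il15 transcript Il15-201 took 29.1 ± 17.6% of the gene's counts in CD11c+CD11b- cells, 54.1 ± 7.45% in CD11c+CD11b+ cells and 52.8 ± 14.6% in CD11c-CD11b+ cells, as split before deposit.

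Il6 and Il10 were low in CD11c+CD11b- cells and Tgfb1 was abundant in all populations. Il6, the inflammatory cytokine on chr5:30013114-30019981, stood at 2.81, 5.22, 3.43, 7.31 and 5.37 CPM in CD11c-CD11b+ cells. The CD11c+CD11b+ values were 4.58, 2.81, 1.84, 2.90 and 1.87 CPM, and the CD11c+CD11b- values 1.20, 1.74, 1.19, 2.34 and 1.58 CPM. All CD11c+CD11b- libraries lay below all CD11c-CD11b+ libraries, by -1.55 ± 0.170 (adjusted p = 0.00048). Against CD11c+CD11b+ cells the difference was -0.77 ± 0.283 (adjusted p = 0.0662), lower in all 5 pools but with overlapping ranges.

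Il10, on chr1:131019845-131024974, held 9.30, 5.59, 7.19, 5.73 and 5.04 CPM in CD11c+CD11b+ cells, 7.85, 7.16, 6.5, 6.31 and 7.57 CPM in CD11c-CD11b+ cells and 1.65, 0.702, 0.816, 1.30 and 1.25 CPM in CD11c+CD11b- cells. The CD11c+CD11b- libraries were clear of both others, at -2.55 ± 0.215 from CD11c+CD11b+ cells (adjusted p = 0.000126) and -2.67 ± 0.218 from CD11c-CD11b+ cells (adjusted p = 0.000133). The other populations did not differ by the test (-0.16 ± 0.154, adjusted p = 0.537).

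Tgfb1, on chr7:25687002-25705077, was the most abundant member per length, with means of 273 to 290 TPM in the myeloid populations. Its levels were 244, 279, 287, 266 and 280 CPM in CD11c+CD11b- cells and 310, 323, 306, 317 and 359 CPM in CD11c+CD11b+ cells, which did not overlap. The CD11c-CD11b+ levels were 209, 345, 287, 344 and 374 CPM, and overlapped both others. The single call was a log2 difference of -0.26 ± 0.064 between the CD11c+ populations (adjusted p = 0.0143), lower in CD11c+CD11b- cells in all 5 pools. Per length the means of these populations stood the other way (283 ± 30.5 and 273 ± 28.7 TPM), so the direction of this small difference depends on the scale.

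In the CD8 T libraries, 5 of 10 members were lower than in the mean of the 3 myeloid populations, beside 33.7% of all genes. These were Il12a, Il12b, Il15, Il15ra and Il6, and the median over the members was -0.64. Without the library labelled untreated CD8 T, 9 members were lower, all but Il10. In that setting 49.1% of the 21546 genes tested passed, 5347 of them lower and 5223 higher. Several members were high in that library alone. Il12b was 8.2 CPM in that library and 0.928 to 1.33 CPM in the 4 irradiated ones; Ebi3 was 35.2 against 3.69 to 8.79 CPM, Il10 24.5 against 2.56 to 5.07 CPM, and Il27 3.85 against 0.923 to 1.5 CPM. Il12a had 3 counts in all 5 libraries together, and no fold is given for it.

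Comparing the 4 irradiated CD8 T libraries with that untreated library, 7 of 9 tested members passed, beside 24.4% of all genes. Il15ra was higher, at 14.7 CPM untreated and 21.7 to 26.4 CPM irradiated (log2 0.68 ± 0.176, adjusted p = 0.0327). Il12b, Il27, Ebi3, Il15, Il10 and Tgfb1 were lower, by log2 -2.82 ± 0.304 for Il12b (adjusted p = 0.00144), -2.71 ± 0.380 for Il10 (0.00328) and -2.39 ± 0.367 for Ebi3 (0.00457). The whole comparison rests on 1 untreated library, in which 10 of 10 macrophage markers were above the irradiated mean. No value without it exists, and the part of other cells in these differences was not tested.

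Radiotherapy was compared with no treatment in each myeloid population, 4 irradiated pools against 1 untreated pool. No member passed in any of them, beside 0.343%, 0.019% and 0.0047% of all genes in the CD11c+CD11b+, the CD11c+CD11b- and the CD11c-CD11b+ population. At an unadjusted p below 0.05, edgeR placed 5, 3 and 6 members, beside 3316 of 20995, 4745 of 21046 and 4053 of 21292 genes. DESeq2 called 3, 3 and 4 members at an adjusted p below 0.05, beside 1247, 2746 and 1336 genes. With 1 untreated pool, the test recovered 1 of 100 genes changed 2-fold and 62 of 100 changed 4-fold in counts simulated for CD11c+CD11b+ cells, so the test had little power for 2-fold differences. Leaving out the RT plus anti-SIRPa pool alone gave 3, 3 and 5 called members. In that setting 3059 genes were called in CD11c+CD11b- and 3393 in CD11c-CD11b+ cells. The CD11c+CD11b+ figure was at most 1786, the highest of any alternative.

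Though no member passed, the 4 irradiated libraries lay above the untreated one for 4 of 10 members in CD11c+CD11b+ cells, for 6 in CD11c+CD11b- cells and for 7 in CD11c-CD11b+ cells. Over all genes tested the shares were 28.6%, 34.9% and 30.6% in that order. All 4 lay below the untreated library for 2, 1 and 2 members, beside 26.9%, 26.3% and 29.2% of all genes. Each share rests on 1 untreated library. In CD11c+CD11b+ cells the members above were Il27, Ebi3, Il15 and Il15ra, with log2 differences of 1.45 ± 0.347, 1.03 ± 0.162, 0.92 ± 0.164 and 0.64 ± 0.294 (adjusted p = 0.126, 0.0596, 0.0683 and 0.358). Il6 and Il10 lay below the untreated library in all 4, at -0.97 ± 0.391 and -0.67 ± 0.265 (0.302 and 0.295). In CD11c-CD11b+ cells the values included 2.71 ± 0.541 for Il23a, 1.95 ± 0.631 for Il12a, 1.82 ± 0.618 for Il27 and 1.47 ± 0.250 for Il15 (adjusted p = 0.173, 0.207, 0.213 and 0.173). Il12b there stood at -1.91 ± 1.124 (0.378). In CD11c+CD11b- cells the members with an unadjusted p below 0.05 were Il12b at 2.73 ± 0.582, Ebi3 at 2.04 ± 0.487 and Il15ra at 0.85 ± 0.269 (adjusted p = 0.0888, 0.0958 and 0.135). Il27 there stood at 0.87 ± 0.797 (0.57). Over the alternatives the adjusted p of the Il12b difference ran from 6.88e-06 to 0.236 and that of Il23a from 0.000197 to 0.39.

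**Figure D4:**
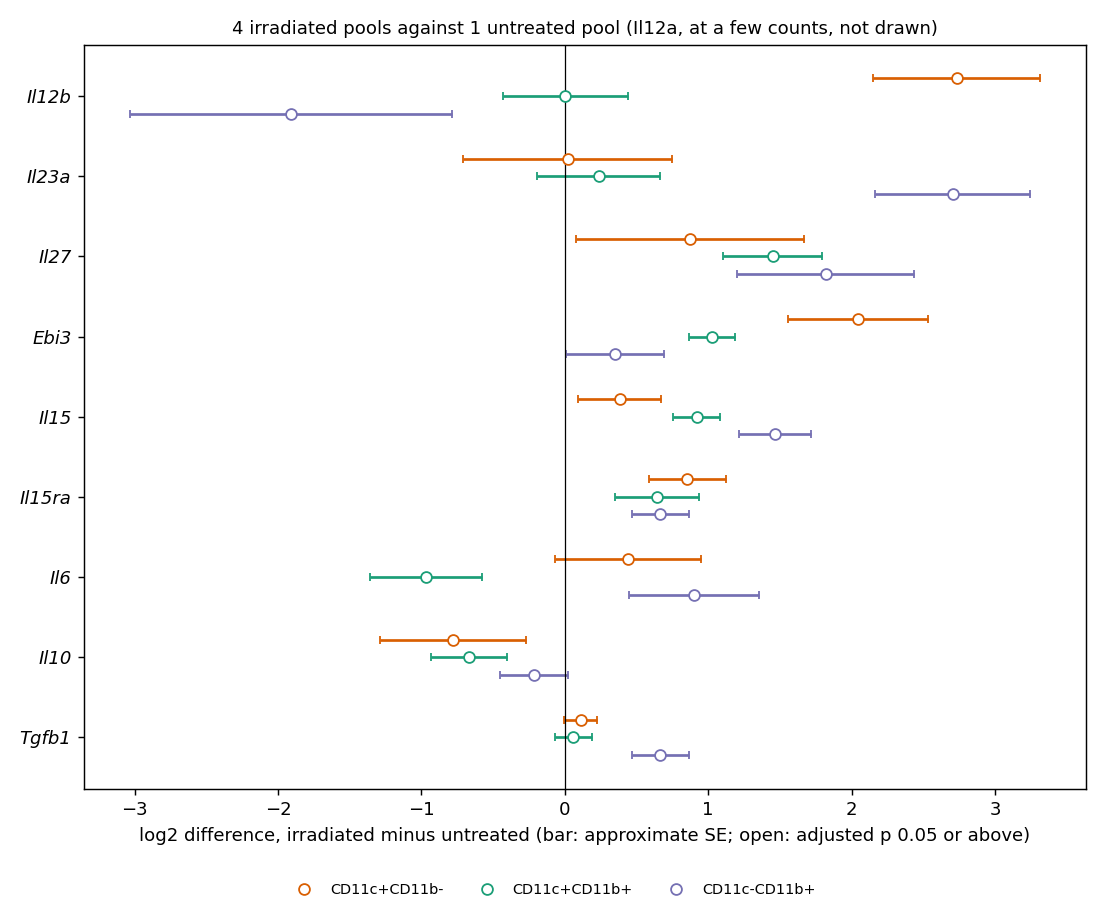
Log2 difference between 4 irradiated pools and 1 untreated pool (horizontal axis) for 9 genes (vertical axis) in each myeloid population, with approximate standard errors; all points are open because none had an adjusted p below 0.05. Il12b stands at 2.73 in CD11c+CD11b- cells and at 0.00 in CD11c+CD11b+ cells.

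Other readings of the same libraries moved with irradiation. Summed markers of fibroblasts and tumour cells were 4410 to 5910 CPM in the 3 untreated myeloid libraries and 410 to 2670 CPM in the 12 irradiated ones. In CD11c+CD11b+ cells the macrophage markers went from 7230 CPM to 11000 to 13900 CPM, with 10 of 10 genes above the untreated level on the irradiated mean. The part of these shifts in the cytokine values was not tested.

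The irradiation difference of Il12b itself differed between the CD11c+ populations. This rests on 1 untreated library in each, at 14.8 CPM in CD11c+CD11b- and 16.1 CPM in CD11c+CD11b+ cells. None of the alternatives left out the untreated pool, so they do not show how far the result depends on it. The interaction, CD11c+CD11b+ minus CD11c+CD11b-, was -2.79 ± 0.180 on the log2 scale (adjusted p = 0.00442), and it passed in all 7 alternatives (-2.83 to -2.69, adjusted p up to 0.0375). It was the 1 member called, beside 0.982% of all genes. Neither of the other interactions called a member. In counts simulated for the interaction between the CD11c+ populations, the test recovered 6 of 100 genes changed 2-fold and 62 of 100 changed 4-fold. It had little power for 2-fold differences, and the other interactions were not simulated. Between CD11c+CD11b+ and CD11c-CD11b+ cells, 0.335% of all genes passed. There 4 members had an unadjusted p below 0.05 in edgeR, beside 1800 of 22061 genes, and DESeq2 called 2, beside 337 genes. Between CD11c+CD11b- and CD11c-CD11b+ cells, 0.00883% of all genes passed. Here 5 members had an unadjusted p below 0.05, beside 2564 of 22638 genes, and DESeq2 called 1, beside 484 genes.

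The Il12b levels of CD11c+CD11b- cells had the same order over the 5 libraries as sums of dendritic cell markers. The 10 genes of mature dendritic cells, such as the chemokine receptor gene Ccr7, summed to 608 CPM untreated, 1970 CPM with RT, 1080 CPM with RT plus anti-SIRPa, 2310 CPM with RT plus anti-PD-1 and 1830 CPM with RT plus both. The 8 cDC1 genes, such as Xcr1, summed to 181, 1380, 559, 1720 and 1360 CPM in that order. All 10 and all 8 genes were above the untreated level on the irradiated mean. The 7 plasmacytoid dendritic cell genes summed to 405, 816, 416, 1060 and 685 CPM in the same order of treatments. The 6 cDC2 genes summed to 246, 434, 298, 416 and 393 CPM, with RT above RT plus anti-PD-1. The library with the least Il12b after irradiation, RT plus anti-SIRPa, was also the lowest irradiated one in each of these sums. At 1520 CPM it was the highest irradiated one in fibroblast and tumour markers. In CD11c+CD11b+ cells the mature dendritic cell sum was 809 CPM untreated and 478 to 997 CPM irradiated, and the lowest Il12b value, 8.63 CPM, came from the library at 478 CPM. The part of these marker levels in the Il12b values was not tested.

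**Figure D5:**
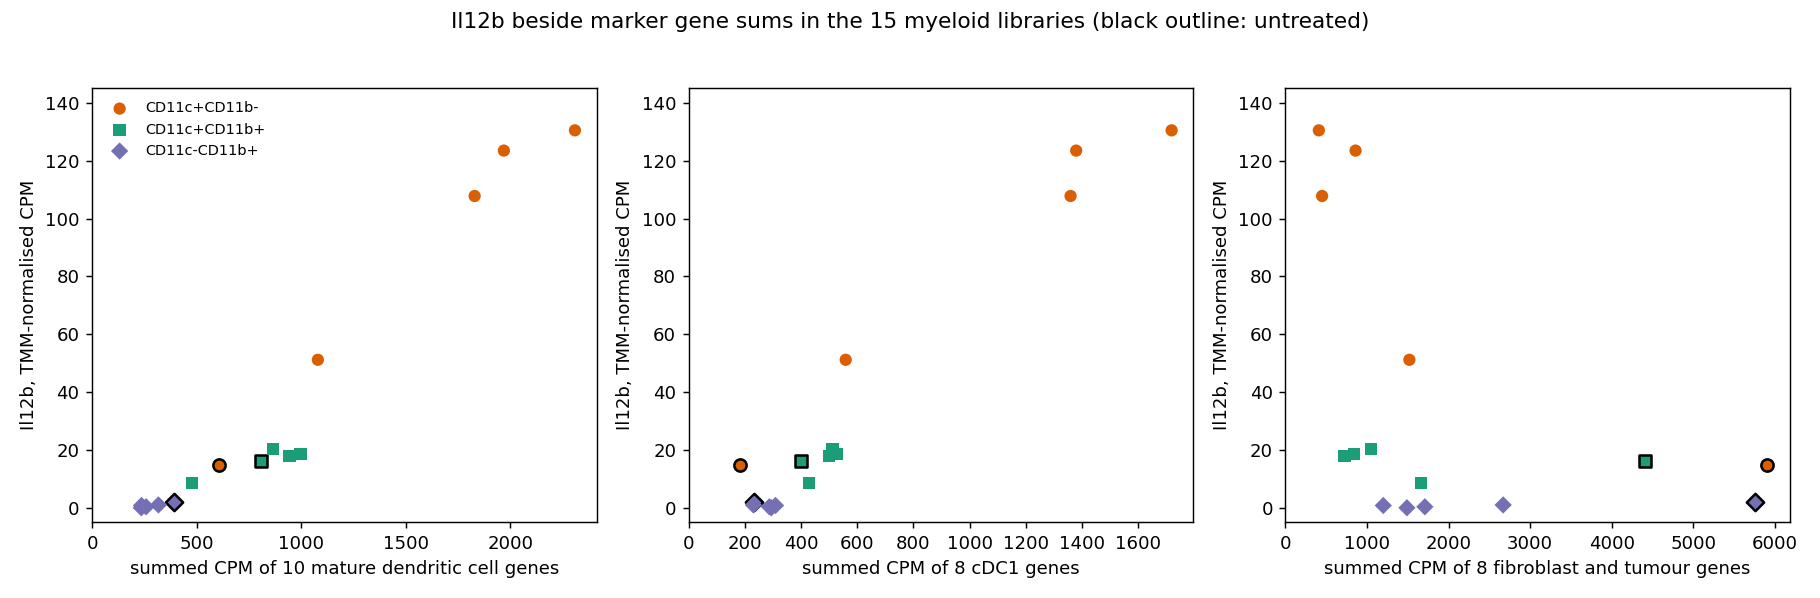
Il12b (vertical axes, TMM-normalised CPM) against summed CPM of marker genes (horizontal axes) of mature dendritic cells, cDC1, and fibroblasts and tumour cells in the 15 myeloid libraries, with untreated libraries outlined in black. The CD11c+CD11b- libraries run from 608 to 2310 CPM in the mature dendritic cell sum as Il12b runs from 14.8 to 130 CPM.

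Of the antibodies, anti-SIRPa called no member in the 4 irradiated libraries of any population. Taking CD8 T, CD11c+CD11b+, CD11c+CD11b- and CD11c-CD11b+ libraries in turn, the shares of all genes called were 0.101%, 0.156%, 0.00523% and 0%. edgeR gave 1, 0, 2 and 0 members an unadjusted p below 0.05, beside 1835 of 18784, 2189 of 19191, 2358 of 19130 and 848 of 19468 genes. DESeq2 called 0 members in each. In CD11c-CD11b+ cells, where edgeR called 0 genes, 848 had an unadjusted p below 0.05 and DESeq2 called 13. The members below 0.05 in CD11c+CD11b- cells were Il12b, at -0.77 ± 0.215, and Ebi3, at -0.56 ± 0.211 (adjusted p = 0.223 and 0.369). These models had 1 residual degree of freedom.

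Anti-PD-1 called 1 member, Il15ra in CD11c+CD11b+ cells, beside 6.66% of all genes there. Il15ra stood at 36.9 and 36.1 CPM in the 2 libraries with anti-PD-1 and at 28.4 and 23.4 CPM in the 2 without, a log2 difference of 0.53 ± 0.106 (adjusted p = 0.0324). The call was lost in 7 of 8 alternatives, of which 5 drop the term for anti-SIRPa, 4 of them together with a library. In CD8 T, CD11c+CD11b- and CD11c-CD11b+ cells no member passed, beside 6.97%, 4.1% and 0% of all genes. There 3, 3 and 1 members had an unadjusted p below 0.05 in edgeR, beside 4399 of 18784, 4765 of 19130 and 2944 of 19468 genes. DESeq2 called 0 members in each. The 3 of CD11c+CD11b- cells were Il12b, Ebi3 and Il15ra, at 0.61 ± 0.215, 0.51 ± 0.211 and 0.40 ± 0.116 (adjusted p = 0.154, 0.2 and 0.105). In CD8 T cells Il10 stood at 2.56 and 2.66 CPM without and at 4.73 and 5.07 CPM with anti-PD-1 (0.91 ± 0.286, adjusted p = 0.106). Ebi3 and Il15, also at an unadjusted p below 0.05 there, were lower with anti-PD-1. They stood at -0.75 ± 0.268 and -0.81 ± 0.308 (adjusted p = 0.147 and 0.171). In CD11c-CD11b+ cells edgeR called 0 genes, 2944 had an unadjusted p below 0.05 and DESeq2 called 533.

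The receptors for these cytokines also differed between the CD11c+ populations. Of 13 receptor chains tested, 6 were higher and 5 lower in the CD11c+CD11b- population than in the CD11c+CD11b+ one. Il2rb, the chain that receives IL-15 and IL-2 signals, was at 1390 to 2190 CPM in CD11c+CD11b- libraries and 40.4 to 72.7 CPM in CD11c+CD11b+ libraries (log2 5.00 ± 0.22, adjusted p = 8.6e-06). Il27ra, the IL-27 receptor, differed by 4.45 ± 0.20 (adjusted p = 9.62e-06) and Il12rb2, the signalling chain of the IL-12 receptor, by 3.03 ± 0.21 (5.08e-05). Il6ra, the IL-6 receptor, was lower by -2.41 ± 0.12 (1.52e-05). The 7 natural killer cell markers were 1410 to 2530 CPM in CD11c+CD11b- libraries and 43.5 to 91.0 CPM in CD11c+CD11b+ libraries, and their part in the receptor values was not tested. In the 4 irradiated CD8 T libraries Il12rb2 was 204 to 316 CPM and Il27ra 66.4 to 84.7 CPM, against 9.96 and 6.49 CPM in the library labelled untreated.

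Transcription factors known to act on cytokine genes also split the CD11c+ populations, with 5 of 17 higher and 6 lower in CD11c+CD11b- cells. Irf8, a factor that dendritic cells of the cDC1 type need, was higher by 1.88 ± 0.12 (adjusted p = 3.89e-05). Bhlhe40, a factor that limits Il10 in some immune cells, was higher by 1.03 ± 0.18 (0.00359). Cebpb, a factor of inflammatory myeloid genes, and Maf, which promotes Il10, were lower by -3.11 ± 0.15 (1.21e-05) and -3.02 ± 0.21 (5.63e-05). In the interaction with irradiation between the CD11c+ populations, 2 of the 17 passed, beside 0.982% of all genes. They were Irf4 at -2.87 ± 0.23 (0.00665) and Bhlhe40 at -1.09 ± 0.17 (0.0415). Of the other lists, Tgfbr1 (1.06), Tgfbr3 (0.99) and Ltbp1 (1.13) passed with a positive sign. Lif (-1.58) and Jak2 (-1.1) passed with a negative one. Each value rests on 1 untreated library per population, and a link to Il12b was not tested. Irf4 was 6.16 CPM in the untreated CD11c+CD11b- library and 14.7 to 33.5 CPM in the irradiated ones, and 27.5 CPM untreated and 8.60 to 19.3 CPM irradiated in CD11c+CD11b+ cells.

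Among the other lists, 6 of 12 signal transducers were higher and 1 lower in the CD11c+CD11b- population, led by Stat4, which carries IL-12 signals, at 1.98 ± 0.20 (adjusted p = 0.000305). Of 10 feedback inhibitors 2 were higher and 5 lower, led by Socs3, an inhibitor of IL-6 signalling, at -1.73 ± 0.07 (7.55e-06). Of 12 tested genes for TGF-beta ligands, storage and activation, 2 were higher and 4 lower. They were led by Thbs1, a TGF-beta activator, at -4.27 ± 0.19 (9.62e-06), and by Furin, the protease that cuts the TGF-beta precursor, at -1.70 ± 0.09 (1.87e-05). Of 6 tested cytokines of the same families, Osm was lower at -2.74 ± 0.14 (1.5e-05) and Clcf1 higher at 1.52 ± 0.13 (0.000116). The medians of the 6 lists ran from -0.64 to 0.29, beside 0.00 over all genes. A share of about 41.6% of all genes differing is the level to read these counts against.

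The genes most like each member were ranked by Pearson's r of log2(CPM + 1) over the 15 myeloid libraries, among 10470 protein-coding genes at a mean of 5 CPM or more. The libraries share pools and populations, so r describes these libraries only. Il12b was closest to Zbtb46 (r = 0.991), a transcription factor gene of conventional dendritic cells, then to Adam23, Tmem150c, Klri1 and Cacnb3 (0.988 to 0.982), of which Cacnb3 is also on the mature dendritic cell list. Il27 was closest to Cndp2 (0.988) and Batf2 (0.987), and Ebi3 to Ctsh and Pld4 (both 0.981). Il15 was closest to the interferon-induced gene Rsad2 (0.978), which was also among the 5 closest to Il23a (0.921). Il10 was closest to Atf3 (0.968), Il1a (0.963) and Nfkbiz (0.961). Between members, r was 0.881 for Il23a and Il15, 0.854 for Il27 and Ebi3 and -0.824 for Il12b and Il15.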

How the data were processed

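The authors deposited 1 table of estimated counts, all whole numbers, with a row per transcript and 20 libraries. Per the submitters' processing notes, FastQC 0.11.8, HISAT2, StringTie and edgeR 3.34.0 were used on GRCm38; versions of HISAT2 and StringTie, strand use and parameters were not given in the sources used here. Of 142699 transcript rows, 141469 matched GENCODE M21 and were summed to 55260 genes; the 1230 others held at most 0.399% of a library's counts. No count was rounded.

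Counts were tested in R 4.3.3 with edgeR 4.0.16 (TMM, filterByExpr with a minimum count of 10 and total of 15, quasi-likelihood F-test, Benjamini-Hochberg adjustment over all genes, limit 0.05). Standard errors are the log2 difference over the square root of F and are approximate. DESeq2 1.42.0 was an alternative. Intervals behind single counts were exact Poisson at 95%, and the floor was 3 counts; both cover counting error only. The 4 population comparisons and the 3 interactions had the pool as a block, because all populations of one treatment were sorted from shared pooled tumours: 14 of 15 same-pool correlations of deviations were over 0.1 (0.052 to 0.71), and the own pool gave the highest correlation in 7 of 15. The block rests on the shared tumours. The antibody tests kept the other antibody as a term. The alternatives were RLE scaling, no filter, DESeq2, no block, antibody terms in the irradiation test, models over more libraries, and leaving out single pools. Every pool was left out once in the population comparisons, and every irradiated pool once in the irradiation, antibody and interaction tests. For the antibody tests this also dropped the other antibody's term. Leaving out each library from the partner ratios was chosen after seeing the data.

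On simulated counts, the comparison of CD11c+CD11b- with CD11c+CD11b+ cells (20905 genes) recovered 80 of 100 genes changed 2-fold and 91 of 100 changed 4-fold.

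The rule for named genes took all 10 members. Of each pathway list, up to 4 genes with the largest log2 difference among those that passed at a mean of 5 CPM or more were eligible, and for each member at a mean of 1 CPM or more its 5 closest genes. The members, lists and motifs were chosen with earlier results of these data known, and marker sums of cell types are described without a test. Sequences came from RefSeq promoter tables; protein sequences were not used here.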

Additional observations from a re-analysis of the deposited data

Results flagged for a closer look

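In 6 of 40 groups of 5 libraries, 1 library lay far from the other 4 by Dixon's criterion. Its rate of about 1 group in 20 is for repeats of 1 condition and cannot be used here. Each group holds 5 different treatments, and the 40 groups reuse the same 20 libraries. Of the 6 cases, 4 were the library labelled untreated CD8 T. Il12b stood there at 8.2 CPM, Il27 at 3.85 CPM, Ebi3 at 35.2 CPM and Il10 at 24.5 CPM, each the highest of the CD8 T libraries. That library also held the highest macrophage marker sum, 18400 CPM, of all 20. Il12a stood apart in the CD8 T library with RT plus anti-PD-1, at 0.115 CPM from 3 counts, beside 4 libraries at 0. Il15 stood apart in the untreated CD11c+CD11b+ library, at 11.8 CPM below 4 irradiated libraries at 21.4 to 23.4 CPM.

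A difference between groups was seen for Il12b, whose irradiation difference was lower in the CD11c+CD11b+ than in the CD11c+CD11b- population by -2.79 on the log2 scale in the test of the interaction.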

How the results depend on the processing

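Of 34 member differences that passed, 19 passed under every alternative run, and of 151 that did not pass, 121 did not under any; none reversed among the values that passed in either fit. The order of the 3 myeloid means was kept for 9 of 10 members under CPM by total count and under TPM.

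Without the replicate block, 8, 2, 6 and 5 members passed in the 4 population comparisons in place of 9, 3, 8 and 5, and 955 genes in place of 4451 between CD11c+CD11b+ and CD11c-CD11b+ cells. DESeq2 called 6 members there, 3 for irradiation in each of CD11c+CD11b+ and CD11c+CD11b- cells, 4 in CD11c-CD11b+ cells, 0 for the anti-PD-1 contrast of the CD11c+CD11b+ population, and 2 and 1 in the interactions of CD11c+CD11b+ and of CD11c+CD11b- with CD11c-CD11b+ cells. Over all genes, DESeq2 called 4570, 1247, 2746, 1336, 1035, 337 and 484 in these comparisons, in the same order. With antibody terms, irradiation called 3 members in each of CD11c+CD11b+ and CD11c+CD11b- cells. With all 20 libraries in 1 model it called 2 in CD11c+CD11b- and 3 in CD11c-CD11b+ cells. For anti-PD-1 in the CD11c+CD11b+ population, no filter on low counts and dropping the other antibody's term each left 0, the latter with 3 genes in place of 1278. Without the library labelled untreated CD8 T, 9 members differed from the myeloid mean, beside 49.1% of all genes.

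Leaving out each pool in turn gave 5 to 8 members where CD11c+CD11b- was set against CD11c-CD11b+ cells, 3 to 5 where CD11c+CD11b+ was, and 3 to 9 for CD8 T cells against the myeloid mean. For irradiation it gave 4 to 8 in CD8 T, 0 to 3 in CD11c+CD11b+, 0 to 3 in CD11c+CD11b- and 0 to 5 in CD11c-CD11b+ cells. For the antibodies, leaving out a pool also dropped the other antibody's term. For anti-PD-1 this gave 0 to 1 in CD8 T, 0 to 0 in CD11c+CD11b+, 0 to 1 in CD11c+CD11b- and 0 to 2 in CD11c-CD11b+ cells. The largest irradiation counts came without the RT plus anti-SIRPa pool, and the cause was not tested. The untreated pool, the only one without RT, was never left out of the irradiation tests.

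Over the alternatives, the genes called for irradiation ran from 1 to 1786 in CD11c+CD11b+ (72 as reported), 0 to 3059 in CD11c+CD11b- (4) and 0 to 3393 in CD11c-CD11b+ cells (1). Those differing between CD8 T libraries and the myeloid mean ran from 4383 to 10683 (7275). For anti-SIRPa they ran from 0 to 46, 0 to 113, 0 to 276 and 0 to 13 in the CD8 T, CD11c+CD11b+, CD11c+CD11b- and CD11c-CD11b+ libraries (19, 30, 1 and 0), and for anti-PD-1 from 0 to 1307, 0 to 1262, 0 to 1149 and 0 to 3408 (1310, 1278, 785 and 0). In the interactions they ran from 12 to 1082 (219) between the CD11c+ populations, 9 to 337 (74) and 0 to 484 (2). Depth limits Il12a most, with 33 counts in all CD11c+CD11b+ libraries.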
